A study of Rattus norvegicus with 17 samples.

Results

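Genes of sodium absorption in the colon were described: the 3 subunits of the epithelial sodium channel ENaC (Scnn1a, Scnn1b, Scnn1g), the sodium-hydrogen exchangers NHE2 and NHE3 (Slc9a2, Slc9a3), the mineralocorticoid receptor (Nr3c2), the aldosterone-induced kinase SGK1 (named Sgk on the array, now Sgk1) and the sodium pump subunit Atp1b1. Every probe that carries 1 of these names was taken, which gave 8 genes on 10 of the 41012 probes of the array. In Cy5 all 10 probes stood well above background on 17 of 17 arrays and were saturated on 0, so each was among the 27083 probes tested.

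The rats were females transgenic for human HLA-B27 and β2-microglobulin on the inbred Fisher 344 background, which develop colitis, and were 8 to 10 weeks old when the experiment began. Of these, 8 ate a purified, humanized Western diet high in calcium (120 mmol per kg, in place of some glucose) and 9 ate the same diet low in calcium (30 mmol per kg). All 17 carried the transgenes, and no rat without them is analysed here. RNA from scrapings of the colon mucosa of each rat was labelled with Cy5 and hybridised beside a Cy3-labelled pool of all animals on its own 2-colour array, and the question was how dietary calcium affects the mucosa of a rat prone to colitis. Each value below is a log2 ratio of 1 rat to the pool. With no dye swap, the zero of that scale can carry a dye effect common to both diets, so a ratio above 0 in both diets does not place a gene above the pool.

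In the colon sodium is taken up from the lumen by 2 routes. In much of the colon the exchangers NHE3 and NHE2 in the surface epithelium swap sodium for protons, alongside a chloride-bicarbonate exchanger. In the distal colon of the rat sodium also enters through ENaC, whose beta and gamma subunits are known to be induced there by aldosterone acting through the mineralocorticoid receptor. SGK1 holds back the ubiquitin ligase that removes ENaC from the membrane. The sodium pump, an alpha and a beta chain, drives both routes by moving sodium out across the base of the cell.

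Marker genes of the tissue were read first. Probes for the epithelial genes Epcam, Vil1 and Krt8, the goblet cell mucin Muc2 and the colonocyte water channel Aqp8 all passed the background filter, as did those for the smooth muscle myosin Myh11 and the leukocyte antigen Ptprc. That filter was passed by 27083 of the 41012 probes, so passing it does not settle which cells the scrapings held. Markers of other cells were read from the same fit, and 0 genes of any marker list passed limma's adjusted threshold. Of 6 fibroblast genes tested, 6 had a lower mean in high calcium rats, with a median difference of -0.51 and list means per rat between -0.93 and 0.22 in high calcium rats, against -0.19 and 0.56 in low calcium rats. Of 9 leukocyte genes, 8 had a lower mean in high calcium rats (median -0.26), with list means per rat between -0.54 and 0.04 in high calcium rats and between -0.26 and 0.36 in low calcium rats. For 13 epithelial genes the median difference was 0.08, and the list means ran from -0.08 to 0.15 in high calcium rats and from -0.17 to 0.14 in low calcium rats. Of 5 goblet genes 4 had a higher mean in high calcium rats (median 0.26), among them Muc2 at 0.23 ± 0.07 (adjusted p = 0.311), and of 8 surface colonocyte genes 7 did (median 0.17). The medians were -0.04 for 6 smooth muscle genes and 0.00064 for 4 genes of enteric neurons and glia. At an unadjusted p under 0.05 there were 6 fibroblast and 5 leukocyte genes with a lower mean and 3 goblet genes with a higher one. The surface colonocyte list had 1 such gene, with a lower mean, and the smooth muscle list had 1 lower and 1 higher. Over the array 4.84% of probes reached that level with a lower and 3.95% with a higher mean. In whole scrapings fewer cells of a type and less RNA per cell cannot be told apart.

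No gene of sodium absorption passed the test between the diets. The number past an adjusted p of 0.05 (limma, Benjamini-Hochberg over all tested probes) was 0 of 8, and over the array percent called was 0. At an unadjusted p under 0.05 the count was 1 of 8, Sgk, with a lower mean in high calcium rats, and over the array 8.79% of probes reached that level, 4.84% with a lower and 3.95% with a higher mean in high calcium rats. A share of 1 in 8 is near that background. The count was 0 from the scanner software's processed signals, under median centring and with the Cy5 channel alone. It was also 0 without rat 1, 10, 13 or 15. With no background correction it was 2, where 2589 of 27083 probes reached that level. Without rats 3 and 16 it was 4, where 2936 of 27083 probes did. Those 2 rats were picked from these same data, so that count is a description and not a test. The means of 5 genes were above and of 3 below those of low calcium rats, where 53.9% of all probes had a difference above 0. The median difference of the 8 genes was 0.09, against 0.0068 over all tested probes. For 0 of 8 genes did the diets fail to overlap, against 0.0295% of all probes.

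**Figure D1:**
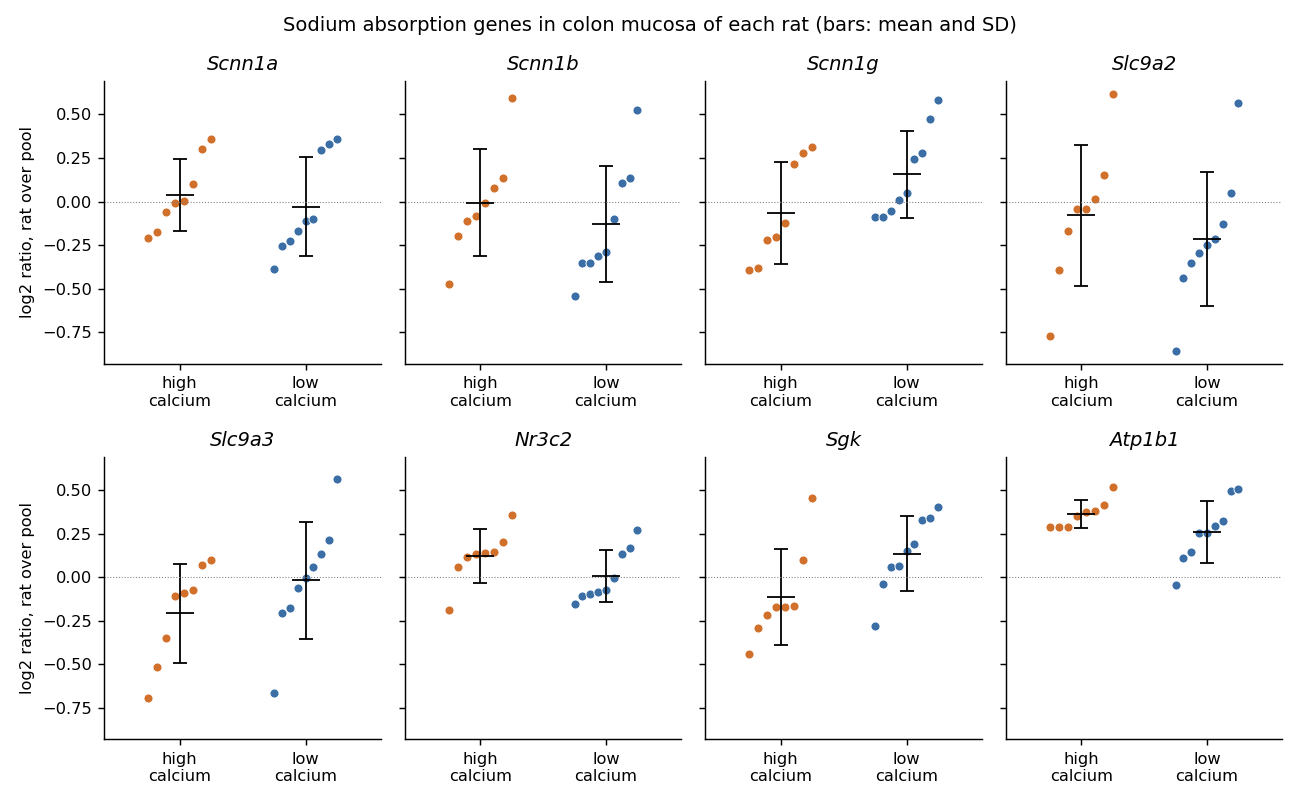
Log2 ratio of each rat to the pool (vertical axis) for the 8 genes, high calcium rats (8, orange) left of low calcium rats (9, blue), sorted within a diet, with the mean and SD as bars. The diets overlap in every panel, and in Sgk 7 of 8 high calcium rats lie under the low calcium median.

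The differences of the 3 ENaC subunits were of both signs. Scnn1a, the alpha subunit that the channel needs to reach the membrane, ran from -0.21 through a median of -0.0031 to 0.36 in high calcium rats, against -0.38, -0.11 and 0.36 in low calcium rats. Its probe covers rn3 chr4:161713781-161713840. The difference was 0.07 ± 0.11 (SE, 8 against 9 rats, adjusted p = 0.899 by limma), with a 95% interval of -0.15 to 0.29. A second, dimmer Scnn1a probe at rn3 chr4:161711823-161711991 gave 0.08 ± 0.07 (adjusted p = 0.778), the same sign as the first.

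Scnn1b, the beta subunit, ran from -0.47 through a median of -0.04 to 0.59 in high calcium rats, against -0.54, -0.29 and 0.53 in low calcium rats (probe at rn3 chr1:180887845-180887904). Most rats on high calcium, 7 of 8, exceeded the median of those on low calcium, but both diets held 1 rat well above its own group, rat 17 at 0.59 on high and rat 6 at 0.53 on low calcium. The difference was 0.12 ± 0.14 (adjusted p = 0.841), with a 95% interval of -0.16 to 0.40.

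Scnn1g, the gamma subunit, had the opposite sign. It ran from -0.39 through -0.16 to 0.31 in high calcium rats, against -0.09, 0.05 and 0.58 in low calcium rats (probe at rn3 chr1:180729138-180729197). Of the high calcium rats 5 lay under every low calcium rat, and the other 3 (rats 2, 3 and 9, at 0.28, 0.22 and 0.31) exceeded the low calcium median. The difference was -0.22 ± 0.12, a ratio of 0.858 (unadjusted p = 0.0694, adjusted p = 0.611), with a 95% interval of -0.46 to 0.02. Within the 4 slides that held 2 rats of each diet, the difference of Scnn1g was 0.34 on slide 1 and -0.39, -0.60 and -0.19 on slides 2, 3 and 4. This probe was also the dimmest of those that stand for a gene, with a net Cy5 signal of 57.5 to 231 per rat over an array background of 43.5 to 53.5, which limits its precision.

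Scnn1b and Scnn1g are neighbours in the rat genome, their probes lying 158647 bases apart on chromosome 1 of rn3. The promoters of both are shown because the genes lie side by side and yet had almost no correlation over the rats, together with those of Slc9a3, which ran opposite to Scnn1b over the rats, and Slc9a2. Each is the 250 bases before the gene's start in RefSeq on GRCr8, written 5′ to 3′ on the gene's strand, with the GC box GGGCGG (either strand) in capitals. Promoters were matched for 5 of the 8 genes (these 4 and Sgk1), and Scnn1a, Nr3c2 and Atp1b1 are named only. The windows are chr1:185861126-185861375 (plus strand) for Scnn1b, chr1:185735975-185736224 (plus) for Scnn1g, chr1:30996003-30996252 (minus) for Slc9a3 and chr9:50427362-50427611 (plus) for Slc9a2.
Scnn1b: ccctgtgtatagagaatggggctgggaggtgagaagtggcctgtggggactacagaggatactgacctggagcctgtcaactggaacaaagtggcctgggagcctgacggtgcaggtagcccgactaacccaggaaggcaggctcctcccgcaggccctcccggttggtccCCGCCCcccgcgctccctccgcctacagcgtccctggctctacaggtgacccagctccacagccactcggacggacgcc
Scnn1g: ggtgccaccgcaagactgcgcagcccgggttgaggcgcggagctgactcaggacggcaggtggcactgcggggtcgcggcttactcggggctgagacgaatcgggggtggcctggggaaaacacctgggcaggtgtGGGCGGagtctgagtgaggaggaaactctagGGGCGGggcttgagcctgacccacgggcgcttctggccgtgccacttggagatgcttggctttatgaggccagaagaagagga
Slc9a3: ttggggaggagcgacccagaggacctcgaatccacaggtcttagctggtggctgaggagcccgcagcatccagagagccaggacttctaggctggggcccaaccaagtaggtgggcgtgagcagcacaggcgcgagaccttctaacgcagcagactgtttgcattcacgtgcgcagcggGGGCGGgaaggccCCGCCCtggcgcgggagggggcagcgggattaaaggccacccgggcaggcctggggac
Slc9a2: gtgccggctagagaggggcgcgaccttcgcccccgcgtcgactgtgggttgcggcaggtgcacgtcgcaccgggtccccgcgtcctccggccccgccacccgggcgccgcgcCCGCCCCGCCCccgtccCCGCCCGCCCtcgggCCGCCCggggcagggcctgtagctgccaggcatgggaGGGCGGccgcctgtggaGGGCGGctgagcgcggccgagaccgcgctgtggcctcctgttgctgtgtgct

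The Scnn1b window holds 1 GC box, 74 to 79 bases before the start, and the Scnn1g window holds 2, at 78 to 83 and 109 to 114 bases. The Slc9a3 window also holds 2, and that of Slc9a2, at 79.6% G and C, holds 7, of which some overlap each other. The Sgk1 window, at 39.2% G and C, holds 0. Of all 33469 promoter windows of that length 30.5% hold at least 1 GC box. The median over all windows is 51.2% G and C. Those of Scnn1b, Scnn1g and Slc9a3 are at 65.6%, 65.6% and 66.8%, so the share of 30.5% is not a background matched for G and C. The half-site AGAACA bound by steroid receptors, including the mineralocorticoid receptor, was searched on both strands and is in 0 of the 5 windows, against 17.5% of all promoters. Its palindrome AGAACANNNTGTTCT, which contains the half-site, is in 0 of the 5 windows and in 0.012% of all promoters. These letters are then not in these 250 bases, which says nothing of sites elsewhere.

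Of the exchangers, Slc9a2 (NHE2) varied most. It ran from -0.77 through -0.04 to 0.62 in high calcium rats, against -0.86, -0.25 and 0.56 in low calcium rats (probe at rn3 chr9:39917402-39917461). The extremes were rats 3 and 18 on high calcium and rats 6 and 15 on low calcium, and the diets overlapped over nearly their whole range. The difference was 0.13 ± 0.16 (adjusted p = 0.865), with a 95% interval of -0.21 to 0.48.

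Slc9a3 (NHE3), the main absorptive exchanger of the gut surface, ran from -0.69 through -0.10 to 0.10 in high calcium rats, against -0.67, -0.0042 and 0.56 in low calcium rats (probe at rn3 chr1:29934758-29934818, minus strand). Here 6 of 8 high calcium rats lay below the low calcium median, and 3 low calcium rats lay above every high calcium rat. The difference was -0.19 ± 0.13, a ratio of 0.876 (adjusted p = 0.729), with a 95% interval of -0.47 to 0.08. Within slides it was -0.42, 0.28, -0.30 and -0.36.

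Of the aldosterone arm, Nr3c2, the receptor, ran from -0.19 through 0.14 to 0.36 in high calcium rats, against -0.15, -0.07 and 0.27 in low calcium rats (probe at rn3 chr19:32532891-32532949, minus strand). On high calcium 7 of 8 rats lay above the low calcium median, and the difference was 0.12 ± 0.07 (adjusted p = 0.68). A dim second probe for Nr3c2 at chr19:32592069-32592128 gave -0.03 ± 0.05, with 8 of 8 high calcium rats under the low calcium median, so the 2 probes disagreed in sign.

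Sgk, the kinase downstream of the receptor, ran from -0.44 through -0.17 to 0.46 in high calcium rats, against -0.28, 0.15 and 0.40 in low calcium rats (probe at rn3 chr1:23504663-23504722, minus strand). On high calcium 7 of 8 rats lay under the low calcium median, and the exception, rat 18 at 0.46, was the highest of all 17. The difference was -0.25 ± 0.10, a ratio of 0.842 (unadjusted p = 0.0282, adjusted p = 0.502 by limma), with a 95% interval of -0.47 to -0.03. It was below 0 on each of the 4 slides that held both diets, at -0.09, -0.32, -0.33 and -0.12. Fibroblast and leukocyte markers, given above, had lower means in high calcium rats too, and their part in the difference was not tested.

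Atp1b1, the beta chain of the sodium pump, was the steadiest. It ran from 0.29 through 0.37 to 0.52 in high calcium rats, against -0.04, 0.26 and 0.51 in low calcium rats (probe at rn3 chr13:80228330-80228389, minus strand). In Atp1b1 8 of 8 rats on high calcium exceeded the median of those on low calcium, and 5 low calcium rats lay under every high calcium rat, while the other 4 low calcium rats lay within the high calcium range. The difference was 0.10 ± 0.06 (adjusted p = 0.695), with a 95% interval of -0.03 to 0.24.

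**Figure D2:**
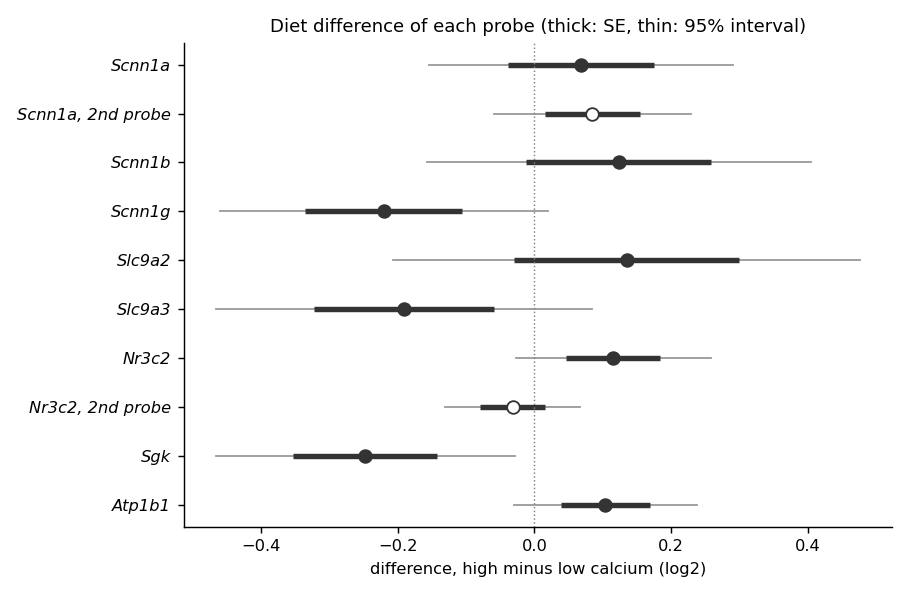
Log2 difference of high from low calcium rats (horizontal axis) for the 10 probes, with the SE as a thick and the 95% interval as a thin bar, and open points for the second probe of a gene. The interval includes 0 for all probes but that of Sgk, which spans -0.47 to -0.03 before adjustment.

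The related genes of sodium, potassium and chloride transport were read from the same fit in 5 lists, and 0 genes passed limma's adjusted threshold in each. At an unadjusted p under 0.05, which 8.79% of all probes reached, there was 1 gene among the regulators of ENaC, 4 among the pump genes, 0 among the exchangers, 1 among the potassium and chloride paths and 1 among the carriers. Over all tested probes 53.9% had a difference above 0 and the median was 0.0068, the background for each list below. Of 17 regulators of ENaC and of the aldosterone response, 15 had a difference above 0 and 2 below, with a median of 0.04 that was 0.097 under median centring and 0.081 from the series matrix. The lists were not tested as sets. Those with the smallest p were Wnk4, a kinase that controls sodium transporters, at 0.12 ± 0.06 (unadjusted p = 0.0399, adjusted p = 0.539), the ubiquitin ligase Nedd4 at -0.13 ± 0.07, and Prss8, the protease that cleaves ENaC, at 0.09 ± 0.06. Nedd4l, the related ligase that SGK1 holds back, is another gene, and it gave 0.09 ± 0.08 (adjusted p = 0.807). In Wnk4 8 of 8 rats on high calcium exceeded the median of those on low calcium.

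Of 11 other pump subunits and FXYD proteins tested, 6 had a difference above 0 and 5 below, with a median of 0.0082 that was -0.057 from the scanner software's processed signals. Fxyd5, a pump regulator also called dysadherin, ran from -0.19 through 0.02 to 0.17 in high calcium rats, against -0.14, 0.31 and 0.49 in low calcium rats. Thus 0 of 8 rats on high calcium exceeded the low calcium median, and 7 of 9 low calcium rats lay above every high calcium rat. The difference was -0.22 ± 0.07 (unadjusted p = 0.0069, adjusted p = 0.347), and without rats 3 and 16, which had stood apart in earlier results of these data, its adjusted p was 0.0356, where 1.21% of all probes passed. Without rat 16 alone it was 0.0857 and without rat 3 alone 0.188. Rats 3 and 16 were picked from these same data, so the adjusted p without them is a description and not a test. Fxyd2, the gamma subunit of the pump, differed by -0.13 ± 0.05 (adjusted p = 0.383) and the beta chain Atp1b3 by -0.12 ± 0.05 (adjusted p = 0.443). Fxyd4, the corticosteroid-induced pump regulator CHIF, gave 0.34 ± 0.15 (adjusted p = 0.546) and is named after its value was seen.

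Of 14 other exchangers and partners of NHE3, 11 had a difference above 0, with a median of 0.04. The NHE3 scaffold Nherf2 gave -0.12 ± 0.08 and Ahcyl1, an NHE3-binding protein, -0.06 ± 0.04. The latter is the brightest of 5 Ahcyl1 probes, of which 3 had a difference above 0 and 2 below. In all 3 of the 14 genes had probes that disagreed in sign. Among 9 genes of potassium and chloride paths, 3 had a difference above 0, and the median of -0.0039 was 0.050 under median centring. Atp12a, the colonic proton-potassium pump, ran from -1.13 through 0.30 to 1.43 in high calcium rats, against -1.44, -0.71 and 0.45 in low calcium rats. Its difference of 0.74 ± 0.33 was the largest in size of the 5 lists, but the rats overlapped over most of the range and it did not pass (unadjusted p = 0.0367, adjusted p = 0.531). The chloride channels Best2 and Clcn2 gave -0.19 ± 0.09 and 0.19 ± 0.11.

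Of 8 sodium-coupled solute carriers 2 had a difference above 0, with a median of -0.03 that was 0.027 under median centring. Slc13a2, a sodium-dicarboxylate cotransporter, ran from -0.38 through 0.05 to 0.27 in high calcium rats, against -0.42, -0.17 and -0.0098 in low calcium rats. Here 5 of 8 high calcium rats lay above every low calcium rat, and the lowest high calcium rat was rat 3. The difference was 0.24 ± 0.08 (unadjusted p = 0.00612, adjusted p = 0.341). Without rat 3 the adjusted p was 0.0462, where 0.713% of all probes passed, and without rats 3 and 16 it was 0.04, where 1.21% passed. Leaving out any other single rat did not bring it under the threshold. Rats 3 and 16 were picked from these same data, so both values are a description and not a test. The amino acid carriers Slc1a5 and Slc6a14 each gave -0.11, with SEs of 0.07 and 0.08.

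**Figure D3:**
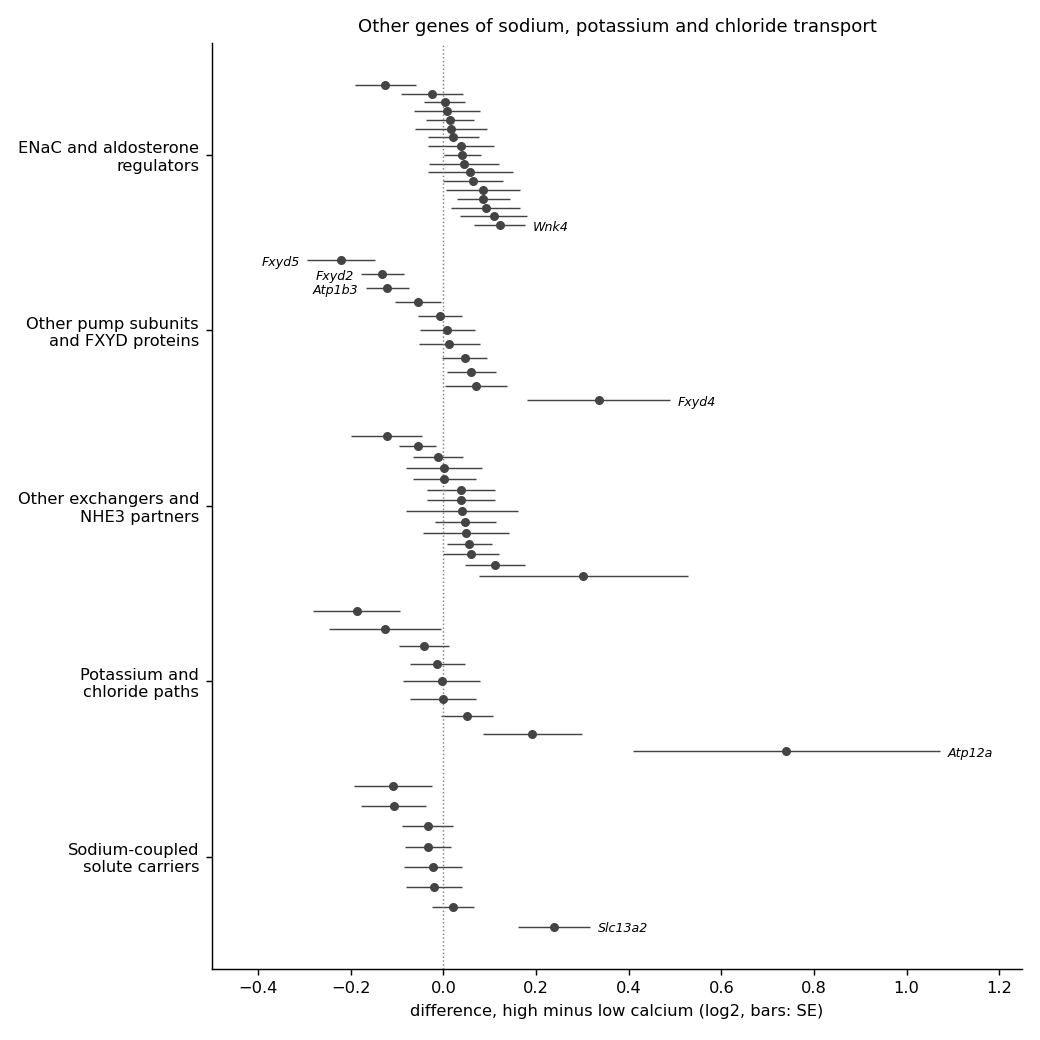
Log2 difference of high from low calcium rats with its SE (horizontal axis) for each tested gene of the 5 lists, sorted within a list, with names where the unadjusted p was under 0.05. Atp12a lies farthest from 0, at 0.74, and carries the widest error.

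By their brightest probes, these genes varied more between rats of the same diet than most of the array. The residual SD between rats was 0.39 for Slc9a2, 0.32 for Scnn1b, 0.31 for Slc9a3, 0.27 for Scnn1g, 0.25 for Scnn1a and 0.24 for Sgk, against a median of 0.117 over all tested probes. These 6 lay above 95% of all tested probes, while Nr3c2 (0.15) and Atp1b1 (0.14) lay at the 75.9th and 69.4th percentiles. The dimmer second probes varied less, at 0.15 for Scnn1a (76.9th percentile) and 0.09 for Nr3c2 (20.1st percentile). The SE of a diet difference followed, at 0.065 to 0.164 for the 8 genes against a median of 0.057, so a change of a given size was harder to detect in them.

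The array carries 10 spots each for the brighter Scnn1a probe and for Scnn1b, Scnn1g and Slc9a3, which separates the error of the spots from the spread of the rats. Within an array the SD over those spots had a median of 0.03 for Scnn1a, 0.04 for Scnn1b, 0.08 for Scnn1g and 0.03 for Slc9a3. The spread between rats of these 4 probes was thus well beyond the error of the spots. The spots share 1 labelled RNA, so differences in dissection or labelling between rats are part of that spread.

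**Figure D4:**
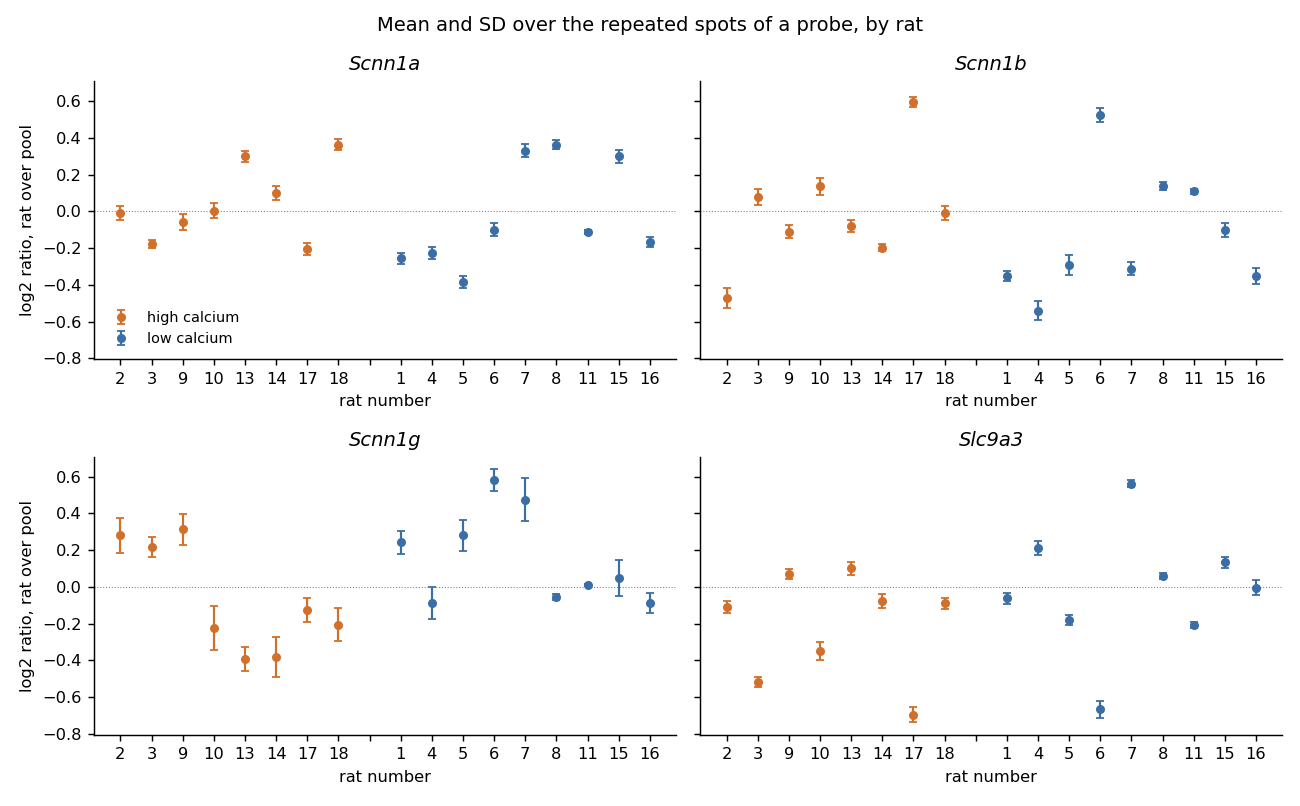
Mean and SD over the repeated spots of 1 probe (vertical axis, log2 ratio to the pool) for each rat, high calcium rats (orange) left of low calcium rats (blue). The spot bars are short beside the distances between rats, and the longest are those of Scnn1g.

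Over the 17 rats, with diet means removed, the 28 pairs of genes were correlated, with permutation of the rats within diets for p and adjustment over the pairs. No pair passed, by Pearson's r or by Spearman's rho, and 4 had an unadjusted p under 0.05 for r. The strongest was an opposition of Scnn1b and Slc9a3, at r = -0.71 (permutation p = 0.0024, adjusted p = 0.0672) and rho = -0.53 (adjusted p = 0.272). It was -0.76 within high and -0.68 within low calcium rats. Without rats 6 and 17, the farthest from the median of Scnn1b, it was -0.38, so much of it rests on them, and under median centring in place of loess it turned to 0.43. With slide means removed as well it was -0.86 (permutation, adjusted p = 0.00084), and Slc9a2 with Slc9a3 was 0.78 (adjusted p = 0.0056). These 2 adjusted p are a description only, because the rats were permuted within diets and not within slides. Next came Slc9a2 with Nr3c2 at r = 0.65 (adjusted p = 0.109) and rho = 0.51, and Scnn1a with Nr3c2 at r = 0.61 (adjusted p = 0.11) and rho = 0.58. The former was 0.97 within high but 0.35 within low calcium rats, and 0.47 without rats 15 and 18. The latter was 0.55 within high and 0.66 within low calcium rats. The neighbours Scnn1b and Scnn1g had r = 0.07.

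The spread between rats was then set against 5 marker lists, a choice made after the values had been seen, which gave 40 relations adjusted together. The posterior Hox genes Hoxb13 and Hoxd13, whose expression in the gut is known to rise toward the anal end, ran with Scnn1b and against Slc9a3. Scnn1b had r = 0.79 with their mean (permutation, adjusted p = 0.0041) and rho = 0.68 (adjusted p = 0.0437), with 0.69 within high and 0.87 within low calcium rats. Slc9a3 had r = -0.79 (adjusted p = 0.0041) and rho = -0.65 (adjusted p = 0.045), with -0.65 within high and -0.87 within low calcium rats. Rats 6 and 17 were the 2 highest in Scnn1b and the 2 lowest in Slc9a3, and rat 6 had the highest Hox mean of all at 0.64.

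Without rats 6 and 7, the farthest from the median of the Hox mean, r was 0.73 for Scnn1b and -0.55 for Slc9a3, and with slide means removed it was 0.78 and -0.93. Taken singly, Hoxb13 had r = 0.76 and rho = 0.78 with Scnn1b, while Hoxd13 had r = 0.70 but rho = 0.37 (permutation p = 0.168, unadjusted). With Slc9a3 r was -0.68 for Hoxb13 and -0.79 for Hoxd13, and rho -0.66 and -0.65. Under median centring the relation of Scnn1b was 0.91, while that of Slc9a3 turned to 0.42 and did not pass (adjusted p = 0.23). Most of the genes rose and fell together over the rats in that setting, so the higher value for Scnn1b is no separate check. The other ENaC subunits had r = -0.13 (Scnn1a) and -0.01 (Scnn1g) with the Hox mean. Only 2 of the 6 Hox genes of that list were tested, and where along the colon each scraping was taken is not in the labels.

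The exchangers ran with markers of the surface colonocyte, the mature cell that faces the lumen. With the mean of 8 such genes Slc9a2 had r = 0.82 (permutation, adjusted p = 0.0036) and rho = 0.75 (adjusted p = 0.0237), and Slc9a3 had r = 0.72 (adjusted p = 0.00736) and rho = 0.79 (adjusted p = 0.0144). Within high and low calcium rats r was 0.81 and 0.83 for Slc9a2, and 0.68 and 0.78 for Slc9a3. Without rats 15 and 18, the farthest from the median, r was 0.75 for Slc9a2 and 0.77 for Slc9a3. That list holds Slc26a3, the chloride-bicarbonate exchanger that works beside NHE3. Slc9a2 also had r = 0.74 with 13 epithelial genes (adjusted p = 0.0041; rho = 0.73) and -0.74 with 6 smooth muscle genes (adjusted p = 0.0107; rho = -0.65), the last of which was -0.45 without rats 3 and 15 and turned to 0.50 under median centring. Slc9a2 with 9 leukocyte genes passed by rho alone (rho = -0.72, adjusted p = 0.0237; r = -0.64, adjusted p = 0.0515). That r was -0.95 within high and -0.36 within low calcium rats. In all 6 of the 40 relations passed by both measures, and none of these 6 involved Scnn1a, Scnn1g, Sgk, Nr3c2 or Atp1b1. These 6 are not separate results, because the epithelial and surface colonocyte lists share Krt20. Rat 6 also had both the highest Hox mean (0.64) and the lowest surface colonocyte mean (-0.33). The lists were chosen after the values had been seen, so these adjusted p are a description.

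**Figure D5:**
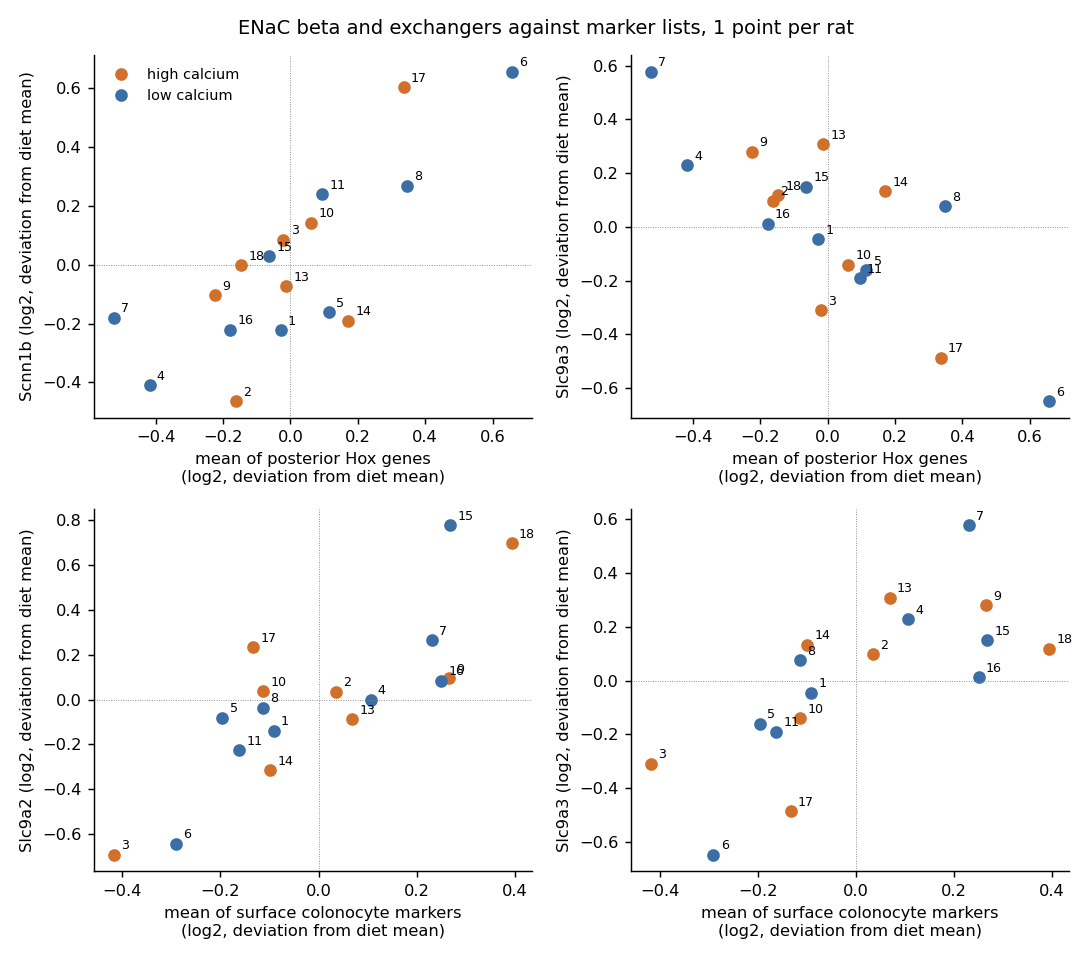
Deviation of each rat from its diet mean (log2) in Scnn1b and Slc9a3 against the mean of the posterior Hox genes (top), and in Slc9a2 and Slc9a3 against the mean of the surface colonocyte markers (bottom), 17 rats with their numbers, high calcium orange and low calcium blue. Rats 6 and 17 stand high in Scnn1b and low in Slc9a3, and both diets follow each trend.

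The genes whose pattern over the 17 rats was most like each channel subunit or exchanger (Pearson's r with diet means removed, as a description) were different for each. They were Chp1, Parp4 and Lpcat4 for Scnn1a (each r = 0.93), and Chp1 encodes a cofactor of sodium-hydrogen exchangers. They were Usp46, the peptide transporter Slc15a1 and Unc119 for Scnn1b (0.88, 0.85 and 0.83), and Fhip2a, Wnt5a and Ibtk for Scnn1g (0.83, 0.83 and 0.82). For Slc9a2 they were Slc51b, a subunit of the basolateral bile acid exporter, Ank3 and Hrc (0.90, 0.90 and 0.89), and for Slc9a3 they were Nat2, Tm7sf3 and Efhc2 (0.90, 0.85 and 0.83). These genes were picked as the highest over all tested probes with a gene name, and the value is that of the probe most alike (for Chp1 not its brightest), so their r has no test.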

How the data were processed

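Intensities of every spot in both dyes come from the deposited scanner files. Per the file headers, Agilent Feature Extraction version 9.5.1.1 made them, with probe positions on rn3, where the submitters' processing notes give 9.5. A deposited series matrix has log2 values for those arrays, whose making, centring and offset are not given in the sources used here, and served as an alternative only.

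Background was corrected by normexp (offset 50) and arrays were normalised by loess with limma 3.58.1 (R 4.3.3). Spots marked as outliers were left out, and the others (of 43379) were averaged over each of 41012 probes. Testing needed 8 or more arrays on which the Cy5 signal was well above background, which 27083 probes met. A gene stands as its brightest probe, except in the search for the most similar patterns, which ran over all tested probes. Median Cy5 signal per array ran from 146.8 to 180.8 over a background of 43.5 to 53.5, and the number of rats limits the precision. Diets were compared with lmFit and eBayes, two-sided, with Benjamini-Hochberg adjustment over all tested probes and a threshold of 0.05. By their numbers in the labels, the rats were treated as separate animals. Relations used 100000 permutations of the rats within diets. The fit was tested on simulated data. Names were updated from RefSeq (GRCr8) where an accession (10735 probes), a symbol (5577) or a synonym (3730) matched.

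The genes and lists were chosen with earlier results of these data known. The text names every gene and probe of the set, the 3 genes of smallest unadjusted p in each related list (1 of them is not reported here), the 3 genes most like each subunit or exchanger, and a few markers of the tissue; Hoxb13, Hoxd13, Fxyd4 and Slc26a3 were named after their values had been seen. Alternatives covered the background correction, the normalisation, the deposited log2 values, the filter, slide, the variance model, covariates, the probe rule and leaving out rats.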

Additional observations from a re-analysis of the deposited data

Results flagged for a closer look

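The search covered 54 groups of 8 or 9 rats, over probes of the 8 genes and of genes named in the related lists. Of these groups 1 held a rat far from the rest. Chance gives about 1 in 20 groups, so 1 of 54 is no more than chance gives. In Prss8, the protease that cleaves ENaC, rat 14 on high calcium stood at -0.41, and the nearest of the other high calcium rats stood at -0.19.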

How the results depend on the processing

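For the 8 genes 256 alternative values were computed, 32 per gene. Of these 253 kept the direction of the difference and 0 passed the adjusted threshold. The lowest adjusted p was 0.146, for Sgk without rats 3 and 16. The 3 that turned were Nr3c2 at -0.068 with the Cy5 channel alone, and Scnn1a at -0.020 and Slc9a2 at -0.047 with the epithelial marker mean as a covariate. Leaving out each rat in turn gave -0.272 to -0.119 for Slc9a3 (lowest in size without rat 7), 0.035 to 0.234 for Slc9a2 (without rats 18 and 3), 0.037 to 0.206 for Scnn1b (without rats 17 and 6), 0.022 to 0.117 for Scnn1a (without rats 18 and 8) and no less than 0.066 for Atp1b1 (without rat 11). Scnn1g was -0.36 with a normexp offset of 0 and -0.34 from the processed signals. Sgk stayed between -0.33 and -0.18. The causes were not tested. Over all probes the number past the threshold was 0 in the reported fit, 35 with the smooth muscle marker mean as a covariate, 329 without rats 3 and 16, and 0 to 193 when each rat was left out in turn (193 without rat 3, 38 without rat 16, 0 otherwise). Of the pairs of genes 0 passed as reported and 18 under median centring, where the median residual SD over probes was 0.272 against 0.117. With slide means removed 2 were under the threshold (Scnn1b with Slc9a3 and Slc9a2 with Slc9a3). That count is a description, because the rats were not permuted within slides. Under median centring the relation of Slc9a3 with the Hox mean turned to 0.42 and that of Slc9a2 with smooth muscle to 0.50, while the other 4 passed in the same direction. Those 4 were the positive ones. In that setting rat 8 stood high and rat 16 low in most of the 8 genes. Genes thus ran together there, and the passing of positive relations is no separate check. The relation of Slc9a2 with the epithelial list was 0.47 with the Cy5 channel alone and did not pass. No paired analysis was possible because no rat number occurs in both diets. Slide 5 held 1 low calcium rat only, so the diets were compared within 4 slides.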
